A study of Mus musculus with 12 samples.

Results

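The 10 genes described here make and control new fatty acids in the epididymal fat of mice (eWAT), a white fat depot of the abdomen. They were chosen by name, as the rows of the deposited expression table whose symbol was Acly, Acaca, Acacb, Fasn, Elovl6, Scd1, Scd2, Mlxipl, Srebf1 or Thrsp, and all 10 were found among 25229 genes with a symbol. RNA sequencing was done on 12 libraries from C57BL/6 mice, 3 biological replicates in each of 4 groups. ND_WT and ND_TKO were wild-type mice and mice of the genotype labelled TET KO on a normal diet, and HFD_WT and HFD_TKO were the same genotypes on a high-fat diet. TET proteins oxidise 5-methylcytosine in DNA, and the series title places their ablation in adipocytes. The sources used here do not give the Cre driver, the deleted exons, the ages of the mice or the length of the diets. The question addressed was how loss of TET proteins changes transcription in fat on either diet.

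De novo lipogenesis turns surplus carbohydrate into fatty acids. Citrate leaving the mitochondrion is cut to acetyl-CoA by ATP citrate lyase (Acly), acetyl-CoA carboxylases carboxylate it to malonyl-CoA (Acaca in the cytosol, Acacb at the mitochondrial surface, where malonyl-CoA restrains fatty acid import), and fatty acid synthase (Fasn) builds palmitate from it. Elovl6 lengthens palmitate to stearate and the stearoyl-CoA desaturases (Scd1, Scd2) insert the double bond that gives palmitoleate and oleate. The glucose-responsive factor ChREBP (Mlxipl), the insulin-responsive factor SREBP-1 (Srebf1) and the small nuclear protein Spot 14 (Thrsp) promote expression or activity of the pathway, and ChREBP is known as a main driver of it in adipocytes.

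Sequences upstream of the transcription starts of 3 genes are shown first because Thrsp and Mlxipl had the largest genotype by diet interactions of the 10 genes and Fasn encodes the synthase itself. They are RefSeq promoter sequences on GRCm38.p6, written 5′ to 3′ along the gene's strand, with exonic bases left out. Capitals mark every match, on either strand, to an E-box (CACGTG), a sterol response element (TCACNCCAC), a CCAAT box (CCAAT) or a GC box (GGGCGG). Fasn lies at chr11:120824548-120824797 (minus strand), the upstream start of Mlxipl at chr5:135089640-135089889 (plus strand), the downstream start of Mlxipl at chr5:135106641-135106890 (plus strand) and Thrsp at chr7:97417731-97417800 (minus strand). The Fasn and Mlxipl sequences end at the start, and 180 bases lie between the Thrsp sequence and its RefSeq start, a stretch not printed that holds CCAAT boxes at -79 and -52.
Fasn: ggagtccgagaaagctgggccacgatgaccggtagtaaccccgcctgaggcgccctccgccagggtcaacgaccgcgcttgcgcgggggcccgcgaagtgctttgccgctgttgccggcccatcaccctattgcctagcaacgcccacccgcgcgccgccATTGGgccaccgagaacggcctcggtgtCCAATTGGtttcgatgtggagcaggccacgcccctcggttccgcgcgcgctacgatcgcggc
Mlxipl upstream start: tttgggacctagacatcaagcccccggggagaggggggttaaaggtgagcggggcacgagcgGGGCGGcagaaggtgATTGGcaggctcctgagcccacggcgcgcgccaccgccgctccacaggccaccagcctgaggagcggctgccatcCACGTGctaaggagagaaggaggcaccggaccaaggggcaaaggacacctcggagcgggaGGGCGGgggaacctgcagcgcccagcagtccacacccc
Mlxipl downstream start: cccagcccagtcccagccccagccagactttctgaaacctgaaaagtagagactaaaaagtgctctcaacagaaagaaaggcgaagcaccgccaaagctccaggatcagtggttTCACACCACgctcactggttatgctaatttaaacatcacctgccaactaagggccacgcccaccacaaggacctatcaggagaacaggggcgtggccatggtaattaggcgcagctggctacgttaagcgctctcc
Thrsp: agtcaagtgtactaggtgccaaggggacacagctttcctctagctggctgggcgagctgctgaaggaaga

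RefSeq windows of 300 bases (250 before and 50 after a start) were found for 8 of the 10 genes, 11 windows in all. Scd1 and Scd2 were not matched. The Fasn window held 39 CpG dinucleotides, more than 95.6% of 32851 windows, whereas the Thrsp window held 4 (31.4% of windows had fewer) and the median window held 7. The Mlxipl windows held 25 and 16. The E-box was found in 1 of the 11 windows, at -98 from the upstream Mlxipl start, and in 7.15% of all windows. The sterol response element was found in 1 of the 11, at -136 from the downstream Mlxipl start, and in 1.24% of all windows. CCAAT boxes were found in 7 of the 11 windows (37.4% of all windows) and GC boxes in 4 (35.7%). In the Fasn sequence the capitals CCAATTGG are CCAAT boxes on opposite strands that overlap. The carbohydrate response element, searched as a pair of E-boxes with 5 bases between them, matched 0 of the 32851 windows. This search required every letter of both E-boxes and would miss inexact copies, so it does not show that the element is absent. These matches describe letters in the windows, with no measure of binding. The Mlxipl starts are 17001 bases apart, and the deposited values, which are per gene, do not separate their transcripts, nor those of the Srebf1 starts.

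Depth was similar across libraries, with recovered totals of 20973140 to 25606629 reads. Levels are given as CPM, reads scaled to the library's total. Tet1 was higher in TKO, at 1.65 to 3.07 CPM against 0.415 to 1.48 in the WT libraries. On ND, Tet2 (14.7 to 23.6 CPM in WT, 15.1 to 23.5 in TKO) and Tet3 (35.5 to 42.0 and 40.01 to 49.1) overlapped between genotypes. On HFD both were lower in TKO without overlap, Tet2 at 9.54 to 13.4 against 13.7 to 17.8 CPM (limma adjusted p = 0.066) and Tet3 at 58.9 to 62.4 against 64.6 to 71.7 CPM (adjusted p = 0.13). Since the deleted exons are not given and the tissue holds other cells, these levels do not check the labels. The mature adipocyte markers (8 genes, among them Adipoq and Plin1) were abundant in all 12 libraries, with summed CPM of 35142 to 38013 (ND_WT), 39232 to 43563 (ND_TKO), 16620 to 17423 (HFD_WT) and 27954 to 31082 (HFD_TKO). Macrophage markers (8 genes) summed to 687 to 1055, 543 to 817, 4837 to 5694 and 1062 to 1195 CPM in the same order. The epididymal genes Lcn5 and Lcn9 and the brown fat gene Zic1 were at 0 reads in all libraries, but other markers of these lists had reads in some. The epididymal markers (5 genes) summed to at most 3.43 CPM, in ND_TKO replicate 2, mostly from Adam7 (3.29 CPM). The brown fat markers (3 genes) were highest in HFD_WT, with sums of 0.665 to 1.49 CPM. In whole tissue, fewer cells of a type and less RNA per cell cannot be told apart, and this holds for every result below. ND_WT replicate 3 stood apart for several of the lipogenic genes, as given with each result.

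The genes took up a large share of all transcripts. Together they held 7.10%, 6.05% and 6.47% of reads in WT and 5.45%, 4.63% and 4.73% in TKO mice on ND, and 1.59%, 1.51% and 1.54% in WT and 4.03%, 3.85% and 3.41% in TKO mice on HFD. The groups did not overlap. Scd1 alone was the most abundant gene of every library and made up 78.0% to 93.8% of the sum. Without Scd1 the sum was 7511, 5426 and 4990 CPM in WT and 3375, 3473 and 3722 CPM in TKO mice on ND, and 2958, 3332 and 2237 CPM in WT and 7098, 5446 and 5123 CPM in TKO mice on HFD, so that the HFD_TKO values lay within the ND_WT range.

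Levels between genes were compared as CPM per kilobase of merged exons (GENCODE M21). In ND_WT the mean level per kilobase was 12152 for Scd1, 463 for Thrsp and 223 for Fasn. Scd2 (85.0), Acly (65.8), Srebf1 (53.9), Acaca (53.9) and Acacb (37.1) followed, with ranges over libraries that overlapped between neighbours. Mlxipl (15.1) and Elovl6 (7.81) were lowest, without overlap. In HFD_WT the order changed: Thrsp, at 55.7 per kilobase, stood below Scd2 (125), Fasn (111) and Acly (63.7), overlapping only Acly, and Acacb (3.79) became the lowest, below Mlxipl (4.42). In HFD_TKO Thrsp was again second at 460, and Acacb (3.57) and Elovl6 (3.43) were lowest.

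**Figure D1:**
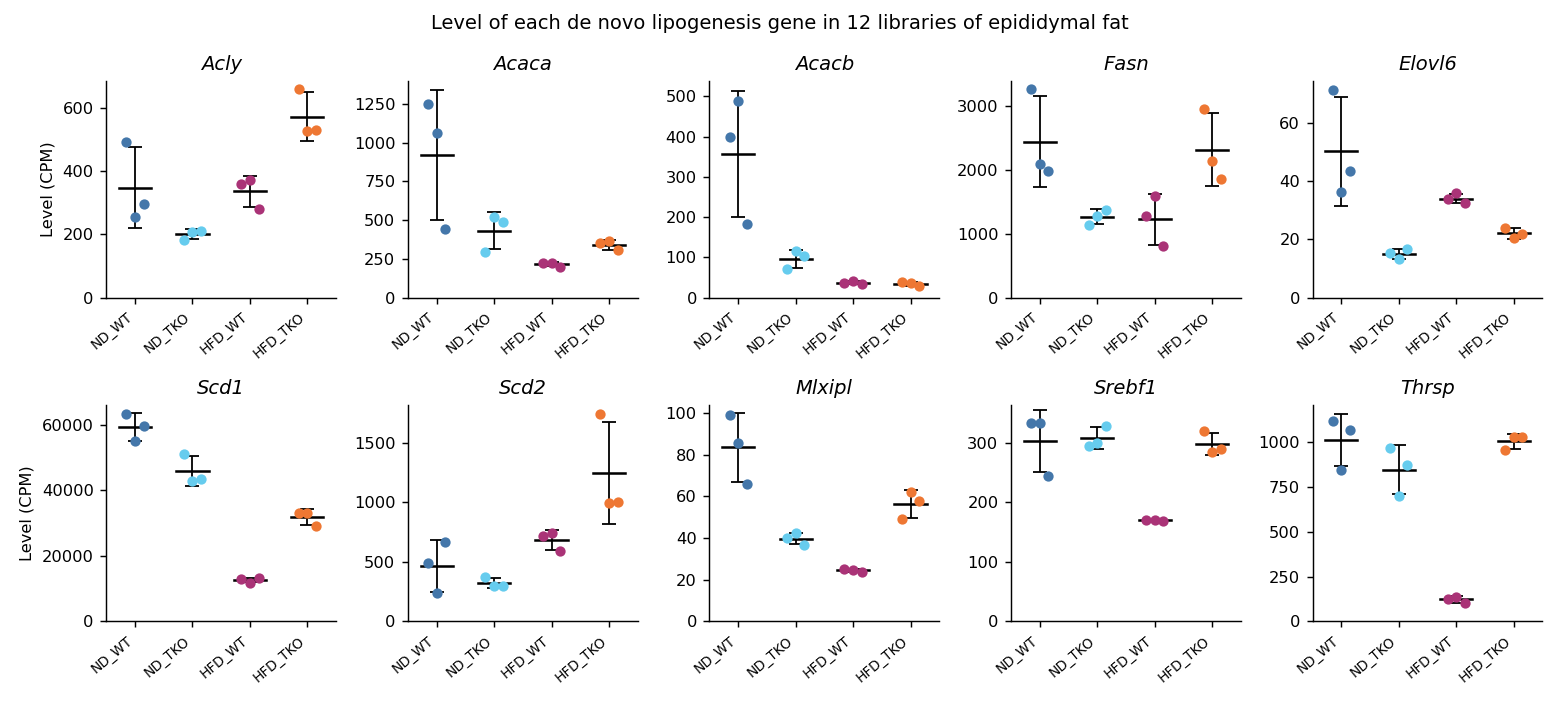
Level of each gene in CPM (vertical axes, linear and starting at 0) in the 12 libraries; each point is 1 mouse, the bar is the group mean and the whiskers its SD (n = 3). Thrsp, Scd1, Mlxipl and Srebf1 are lowest in HFD_WT, Acacb is low in both HFD groups, and Elovl6 is low in both TKO groups.

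The supply of malonyl-CoA was followed first. Acly (Entrez gene 104112, chromosome 11, 100476353 to 100528000, minus strand) measured 492, 254 and 296 CPM in WT and 183, 208 and 212 CPM in TKO mice on ND, and 359, 370 and 280 CPM in WT and 661, 525 and 530 CPM in TKO mice on HFD. All 3 HFD_TKO libraries were above all others. Acaca (Entrez gene 107476, chromosome 11, 84129672 to 84401651, plus strand) measured 1250, 1063 and 446 CPM in WT and 294, 517 and 485 CPM in TKO mice on ND, and 221, 221 and 199 CPM in WT and 355, 365 and 305 CPM in TKO mice on HFD. ND_WT replicate 3 lay inside the ND_TKO range, while the HFD groups did not overlap. Acacb (Entrez gene 100705, chromosome 5, 114146535 to 114250761, plus strand) measured 400, 488 and 184 CPM in WT and 71.4, 115 and 104 CPM in TKO mice on ND, and 37.0, 39.9 and 32.7 CPM in WT and 38.4, 35.3 and 29.6 CPM in TKO mice on HFD. Both HFD groups lay below every ND library and overlapped each other.

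Synthesis and elongation came next. Fasn (Entrez gene 14104, chromosome 11, 120805846 to 120824547, minus strand) measured 3260, 2081 and 1972 CPM in WT and 1138, 1280 and 1367 CPM in TKO mice on ND, and 1266, 1586 and 808 CPM in WT and 2950, 2127 and 1857 CPM in TKO mice on HFD. The ND_TKO and HFD_WT libraries were all below those of the other groups. Elovl6 (Entrez gene 170439, chromosome 3, 129532355 to 129638495, plus strand) measured 71.4, 36.0 and 43.3 CPM in WT and 15.4, 13.2 and 16.7 CPM in TKO mice on ND, and 33.8, 35.7 and 32.4 CPM in WT and 24.0, 20.4 and 21.8 CPM in TKO mice on HFD. Both TKO groups lay below both WT groups.

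The desaturases behaved unlike each other. Scd1 (Entrez gene 20249, chromosome 19, 44394455 to 44407879, minus strand) measured 63476, 55115 and 59748 CPM in WT and 51167, 42842 and 43549 CPM in TKO mice on ND, and 12911, 11805 and 13163 CPM in WT and 33247, 33099 and 29025 CPM in TKO mice on HFD. No groups overlapped. Scd2 (Entrez gene 20250, chromosome 19, 44293674 to 44306864, plus strand, 87590 bases from Scd1) measured 487, 237 and 668 CPM in WT and 369, 298 and 299 CPM in TKO mice on ND, and 718, 745 and 590 CPM in WT and 1745, 995 and 1001 CPM in TKO mice on HFD. The HFD_TKO libraries were all highest, with replicate 1 far above the others. Scd1 and Scd2 are near copies of each other and of Scd3 and Scd4, and how reads that map to several copies were counted is not given, so reads may be split uncertainly between them.

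The regulators were lowest in HFD_WT. Mlxipl (Entrez gene 58805, chromosome 5, 135089890 to 135138382, plus strand) measured 98.9, 85.8 and 66.1 CPM in WT and 39.8, 42.2 and 36.8 CPM in TKO mice on ND, and 25.2, 24.5 and 23.8 CPM in WT and 49.0, 62.3 and 57.8 CPM in TKO mice on HFD. No groups overlapped. Srebf1 (Entrez gene 20787, chromosome 11, 60199089 to 60222581, minus strand) measured 333, 333 and 244 CPM in WT and 295, 300 and 329 CPM in TKO mice on ND, and 171, 171 and 169 CPM in WT and 320, 285 and 290 CPM in TKO mice on HFD. HFD_WT lay below the other groups, which overlapped. Thrsp (Entrez gene 21835, chromosome 7, 97412938 to 97417730, minus strand) measured 1119, 848 and 1072 CPM in WT and 969, 699 and 873 CPM in TKO mice on ND, and 126, 138 and 102 CPM in WT and 957, 1033 and 1030 CPM in TKO mice on HFD. Only HFD_WT stood apart. Exons of other genes overlapped 4.24% of the merged exon bases of Mlxipl, 3.11% of Srebf1, 1.12% of Scd2 and 0.529% of Elovl6, and since use of strand in counting was not given, small parts of these values may come from those genes.

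Most of the pathway was lower on the CPM scale in WT mice fed the high-fat diet. Of the 10 genes, 8 were lower and 0 higher in HFD_WT than in ND_WT (limma on log2(CPM + 1), Benjamini-Hochberg adjusted p under 0.05 over 15597 tested genes), whereas 20.3% of all tested genes were lower and 37.8% higher. On the adipocyte-centred scale described further on, 5 of the 10 were lower and 4 higher, and 3 of the 8 (Fasn, Elovl6, Srebf1) had positive differences. The share over all tested genes was not counted on that scale. On the CPM scale the median log2 difference was -1.36, against 0.13 over all genes. Acacb fell by 3.14 on the log2 scale (SE 0.29, limma adjusted p = 2.8e-06) and Thrsp fell by 3.05 (SE 0.15, adjusted p = 2.4e-08). Scd1 fell by 2.23 (SE 0.26, limma adjusted p = 1.7e-05), Acaca fell by 1.97 (SE 0.32, adjusted p = 2.2e-04) and Mlxipl fell by 1.71 (SE 0.13, adjusted p = 5.5e-07). Smaller decreases were those of Fasn (-1.01, SE 0.26, limma adjusted p = 0.0053), Srebf1 (-0.82, SE 0.11, adjusted p = 5.5e-05) and Elovl6 (-0.49, SE 0.19, adjusted p = 0.044). Acly differed by 0.00 (95% interval -0.44 to 0.45) and Scd2 by 0.68 (-0.02 to 1.37, limma adjusted p = 0.088). Adipocyte markers were lower (8 of 8) and macrophage markers higher (8 of 8) in HFD_WT than in ND_WT, and the part of the macrophage markers was not tested. The Elovl6 call held in 4 of the 12 fits that left out 1 library, and its difference was -0.21 (adjusted p = 0.16) without ND_WT replicate 1. Without ND_WT replicate 3 Scd2 was called higher (1.0, limma adjusted p = 0.012), and with no filter on low values Scd1 was not called (adjusted p = 0.091).

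On the high-fat diet the TKO libraries had higher levels of most of these genes. Relative to HFD_WT, 6 genes were higher and 1 lower in HFD_TKO, against 15.2% of all tested genes higher and 31.6% lower, and the median log2 difference was 0.81 against -0.10 over all genes. On the adipocyte-centred scale only Thrsp and Mlxipl of the 6 were still called higher, and Acly (-0.05) and Srebf1 (-0.01) were near 0. On the CPM scale Thrsp rose most, by 3.05 (SE 0.15, limma adjusted p = 6.6e-08), followed by Scd1 (1.33, SE 0.26, adjusted p = 0.0013), Mlxipl (1.16, SE 0.13, adjusted p = 2.1e-05), Fasn (0.95, SE 0.26, adjusted p = 0.010), Srebf1 (0.80, SE 0.11, adjusted p = 9.1e-05) and Acly (0.77, SE 0.21, adjusted p = 0.0090). Elovl6 was the gene that fell, by 0.60 (SE 0.19, limma adjusted p = 0.022). Acaca (0.67, 95% interval -0.02 to 1.36, limma adjusted p = 0.10) and Scd2 (0.82, 0.12 to 1.51, adjusted p = 0.052) were not called although their groups did not overlap, and Acacb differed by -0.09 (-0.73 to 0.55). Macrophage markers moved the other way, 8 of 8 lower in HFD_TKO, and adipocyte markers the same way, 8 of 8 higher. The part of the macrophage markers was not tested, and values relative to the adipocyte markers are given further on. With TMM scaling, which corrects for a few genes that take up many reads, 7 genes were higher and 0 lower. The Elovl6 call ended without HFD_WT replicate 1 or 2 or HFD_TKO replicate 2 or 3 (adjusted p of 0.054, 0.065, 0.067 and 0.055) and with edgeR (0.076) or DESeq2 (0.056), whereas both tools called Acaca and Scd2 higher. Leaving out ND_WT replicate 3, which enters through the shared spread, gave calls for Acaca (limma adjusted p = 0.0084) and Scd2 (adjusted p = 0.023).

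On the normal diet fewer genes were called. In ND_TKO 3 genes were lower than in ND_WT and 0 higher, against 3.54% and 2.16% of all tested genes, with a median of -0.82 against -0.06. These were Acacb (-1.79, SE 0.29, limma adjusted p = 0.0046), Elovl6 (-1.62, SE 0.19, adjusted p = 8.2e-04) and Mlxipl (-1.04, SE 0.13, adjusted p = 0.0011), none of whose groups overlapped. Acaca (-1.0, 95% interval -1.69 to -0.31, limma adjusted p = 0.089), Fasn (-0.91, -1.48 to -0.35, adjusted p = 0.062) and Acly (-0.73, -1.18 to -0.28, adjusted p = 0.060) were not called. Scd1 (-0.38, -0.94 to 0.19), Scd2 (-0.41, -1.10 to 0.29) and Thrsp (-0.26, -0.58 to 0.06) had intervals that included 0, and Srebf1 differed by 0.03 (-0.20 to 0.27). Adipocyte markers (0 of 8 called) and macrophage markers (0 of 8) were not called in this comparison. ND_WT replicate 3 mattered most: without it 6 genes were called lower, Acaca among them (-1.46, limma adjusted p = 0.0011), and DESeq2 called 7. With only the ND libraries in the fit Acacb was at adjusted p = 0.052.

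Within TKO mice the high-fat diet raised 4 genes and lowered 1, against 16.2% and 5.90% of all tested genes, and the median was 0.38 against 0.07. Scd2 rose by 1.90 (SE 0.32, limma adjusted p = 0.0028), Acly by 1.5 (SE 0.21, adjusted p = 0.0014), Fasn by 0.85 (SE 0.26, adjusted p = 0.036) and Mlxipl by 0.49 (SE 0.13, adjusted p = 0.020), while Acacb fell by 1.44 (SE 0.29, adjusted p = 0.0061). Elovl6 differed by 0.52 (95% interval 0.10 to 0.94, limma adjusted p = 0.072) and Scd1 by -0.53 (-1.09 to 0.04, adjusted p = 0.17). Scd1 was called lower by edgeR (-0.61, adjusted p = 0.0066), by DESeq2 (adjusted p = 1.0e-06) and with the filter at 5 CPM (adjusted p = 0.044). The differences of Thrsp (0.26, -0.06 to 0.58), Acaca (-0.30, -0.99 to 0.39) and Srebf1 (-0.05, -0.29 to 0.19) had intervals that included 0. Macrophage markers were higher (7 of 8) and adipocyte markers lower (5 of 8) in HFD_TKO than in ND_TKO, and the part of the macrophage markers was not tested. On the adipocyte-centred scale described further on, 7 genes were higher and 1 (Acacb) lower. Thrsp (0.70, limma adjusted p = 0.0011), Elovl6 (0.96, adjusted p = 9.2e-04) and Srebf1 (0.39, adjusted p = 0.0088) were called there but not in the main fit. Elovl6 was also called with only the TKO libraries in the fit (0.52, limma adjusted p = 0.023) and in 2 of the 12 fits that left out a library. On the CPM scale the count of called genes fell to 3 without ND_TKO replicate 3, or without HFD_TKO replicate 2, as the calls of Fasn and Mlxipl ended. TMM scaling (0.77, limma adjusted p = 0.072), edgeR (adjusted p = 0.062) and no filter (adjusted p = 0.066) also ended the call of Fasn. Over the 12 fits that left out a library, Fasn was called in 6 and Mlxipl in 9.

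**Figure D2:**
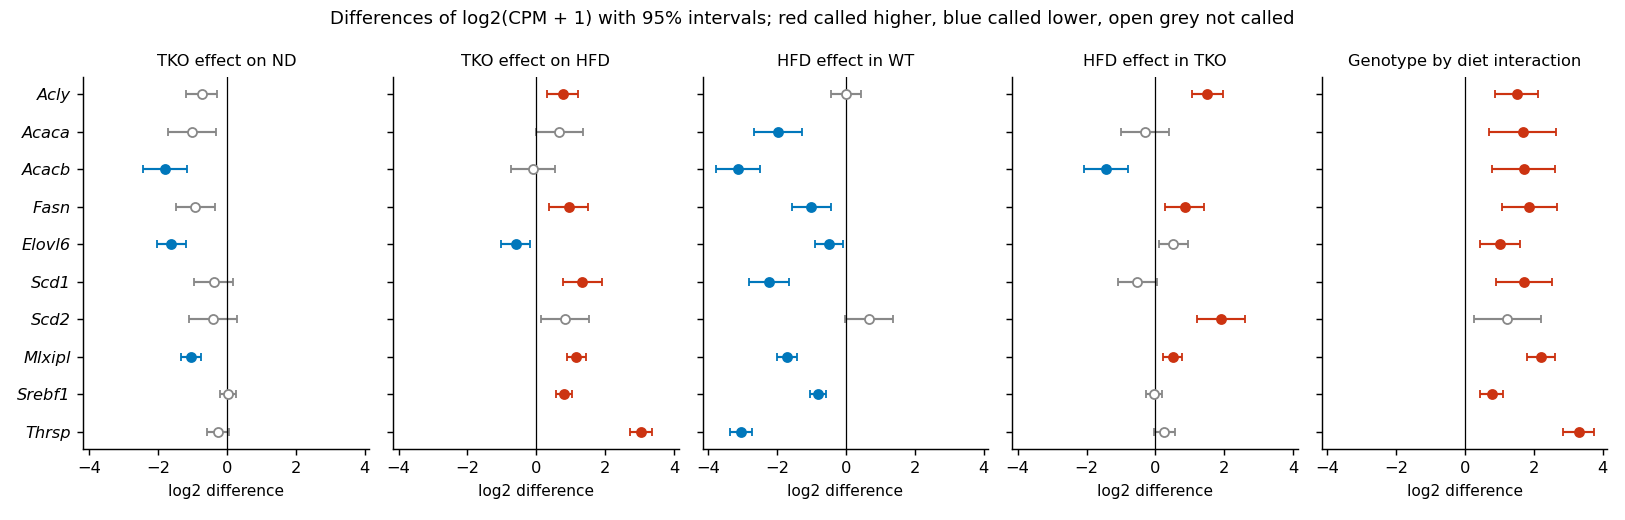
Log2 difference of each gene (horizontal axis, on the log2(CPM + 1) scale) in the 5 comparisons, with 95% intervals from the limma fit; filled red points were called higher, filled blue points lower and open grey points not called. Of the 10 genes, 8 are called lower by high-fat feeding in WT and 9 have a called interaction above 0.

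Whether the genotype difference depended on diet was tested directly. The interaction, the TKO minus WT difference on HFD less that on ND, was above 0 for 9 genes and below 0 for 0 (limma adjusted p under 0.05), against 9.94% and 18.8% of all tested genes, with a median of 1.68 against -0.06. On the adipocyte-centred scale 6 were called, without Acaca (0.92, limma adjusted p = 0.068), Elovl6 (0.27, adjusted p = 0.38) and Srebf1 (0.02, adjusted p = 0.91), and with no filter on low values Scd1 was not called (adjusted p = 0.46). It was largest for Thrsp (3.31, SE 0.21, limma adjusted p = 2.9e-06) and Mlxipl (2.20, SE 0.19, adjusted p = 1.5e-05). Fasn (1.86), Scd1 (1.71), Acacb (1.70), Acaca (1.67), Acly (1.5), Elovl6 (1.01) and Srebf1 (0.77) had adjusted p-values of 0.0028, 0.0046, 0.0094, 0.016, 0.0025, 0.015 and 0.0032. Scd2 was not called (1.23, 95% interval 0.25 to 2.21, limma adjusted p = 0.061), but was called by edgeR (1.48, adjusted p = 0.033) and without ND_WT replicate 2 (1.65, adjusted p = 0.0034). The sign of an interaction does not say which groups moved: for Elovl6 and Acacb it came with lower TKO levels on ND and a smaller difference on HFD, and for Thrsp with a higher TKO level on HFD. These comparisons share libraries and are not independent of each other.

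Ratios of related genes within a library do not depend on how libraries are scaled. The ratio of Scd1 to Scd2 (in CPM) was 130, 232 and 89.4 in WT and 139, 144 and 145 in TKO mice on ND, and 18.0, 15.9 and 22.3 in WT and 19.1, 33.3 and 29.0 in TKO mice on HFD. Both HFD groups lay below every ND library and overlapped each other. The ratio of Acaca to Acacb was 3.13, 2.18 and 2.43 in WT and 4.12, 4.49 and 4.68 in TKO mice on ND, and 5.99, 5.55 and 6.08 in WT and 9.24, 10.3 and 10.3 in TKO mice on HFD. No groups overlapped, with the cytosolic form gaining on the mitochondrial form under high-fat feeding in both genotypes and in TKO on both diets. Such a ratio shows unequal change of the pair and does not say which member changed.

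**Figure D3:**
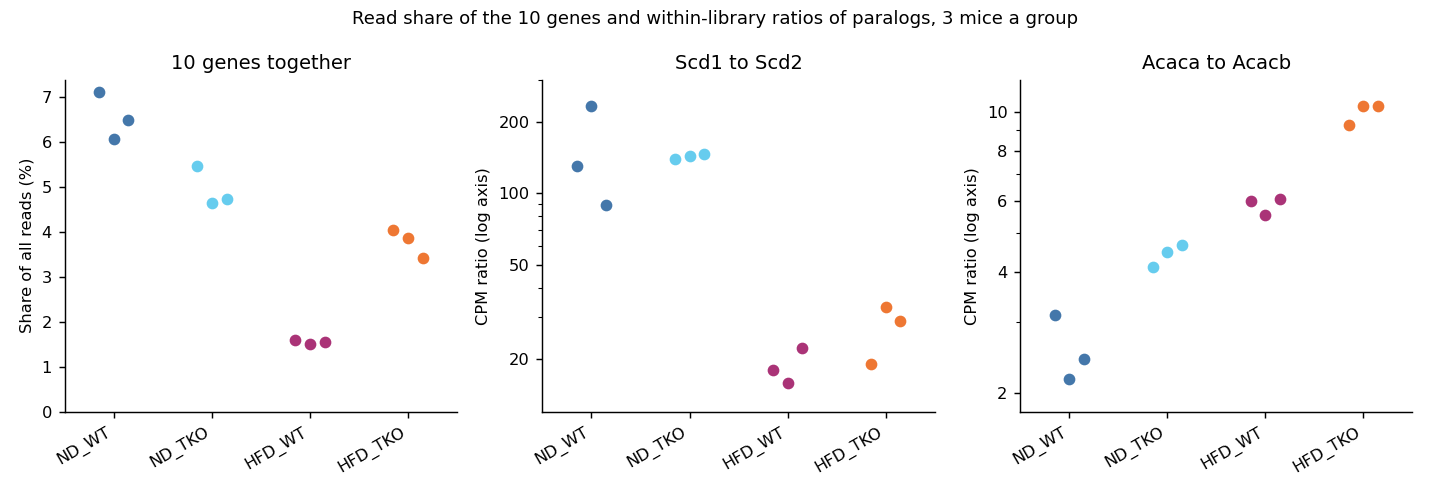
Share of all reads held by the 10 genes (left, percent, axis from 0), ratio of Scd1 to Scd2 (middle, log axis) and ratio of Acaca to Acacb (right, log axis) in each library, 3 mice a group. The read share is between 1.51% and 1.59% in HFD_WT and above 3.4% elsewhere, and the Acaca to Acacb ratio rises from 2.18 at its lowest in ND_WT to 10.3 in HFD_TKO.

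Since the adipocyte markers moved with these genes on the high-fat diet, the differences were also taken relative to the mean log2 level of those 8 markers, which was 11.26 (ND_WT), 11.32 (ND_TKO), 10.07 (HFD_WT) and 10.89 (HFD_TKO). Centring moves every gene of a comparison by the same amount, and the share called over all tested genes was not counted after it. On the centred scale 4 of the 10 genes differed between HFD_TKO and HFD_WT. Thrsp was still higher (2.23, limma adjusted p = 3.2e-08), as was Mlxipl (0.35, adjusted p = 0.021), and Elovl6 (-1.42, adjusted p = 1.6e-05) and Acacb (-0.90, adjusted p = 0.0093) were lower. Scd1 (0.51, limma adjusted p = 0.072), Fasn (0.13), Acly (-0.05), Srebf1 (-0.01), Acaca (-0.15) and Scd2 (0.00) were not called. Between HFD_WT and ND_WT, 5 genes were lower relative to the markers: Acacb (-1.96), Thrsp (-1.86), Scd1 (-1.05), Acaca (-0.78) and Mlxipl (-0.52). In the same comparison Scd2 (1.86), Acly (1.19), Elovl6 (0.70) and Srebf1 (0.37) were higher, and Fasn was not called (0.17). The interaction on this scale was called for 6 genes, with Thrsp at 2.56, Mlxipl at 1.46, Fasn at 1.11, Scd1 at 0.96, Acacb at 0.95 and Acly at 0.75. The markers are themselves genes that can be regulated, so this scale is one choice of reference and no measure of cell number.

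**Figure D4:**
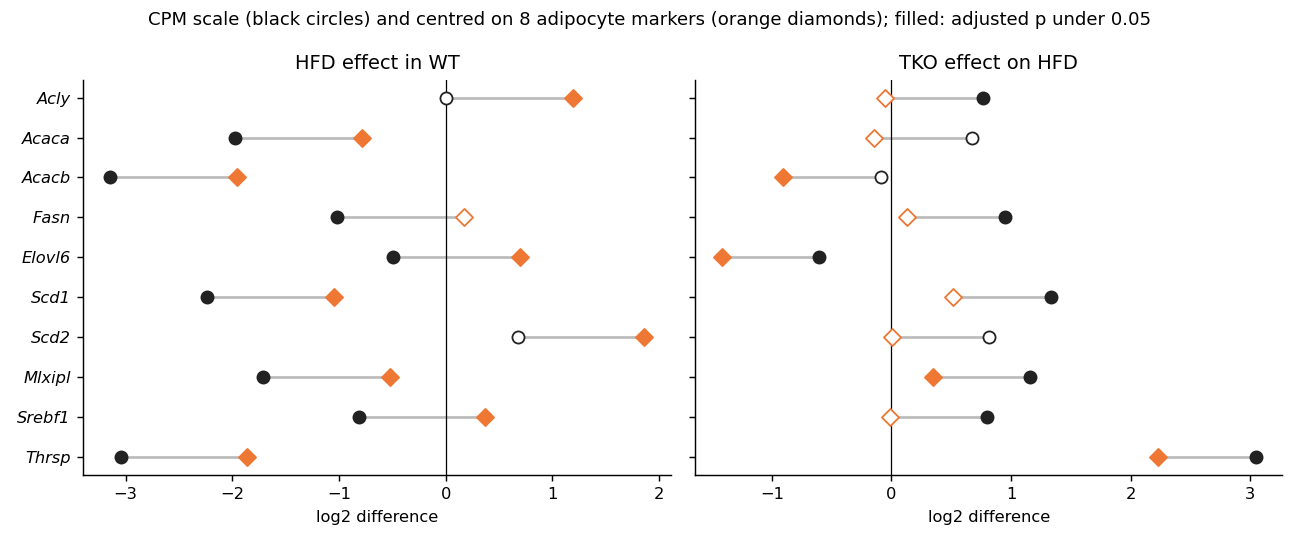
Log2 differences (horizontal axes) of the 10 genes for HFD against ND in WT (left) and TKO against WT on HFD (right), on the CPM scale (black circles) and centred on 8 adipocyte markers (orange diamonds); filled symbols had an adjusted p under 0.05. Thrsp stays at 2.23 on the right after centring, whereas Acly, Srebf1 and Scd2 move to near 0.

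Genes around the pathway were taken from lists by role, and directions are on the CPM scale. Of all tested genes 15.2% were called higher and 31.6% lower by genotype on HFD, and 37.8% and 20.3% by diet in WT. By diet in TKO these shares were 16.2% and 5.90%, and by genotype on ND 2.16% and 3.54%. Relative to the adipocyte markers the counts shifted downwards: in HFD_TKO against HFD_WT 6 of 10 precursor genes, 11 of 15 elongation and desaturation genes, 9 of 10 malonyl-CoA genes and 12 of 14 partners were then called lower, some of which were lower on the CPM scale too. Such counts include the shift that centring gives to every gene, and the share over all tested genes was not counted after centring. Scd3 and Slc2a4 were still higher once centred. On the CPM scale 5 of the 10 genes that supply precursors and NADPH were higher and 0 lower in HFD_TKO than in HFD_WT (6 lower and 0 higher once centred), with a median of 0.34: Acss2 (cytosolic acetate to acetyl-CoA; 0.88, limma adjusted p = 0.042), Pdha1 (pyruvate to acetyl-CoA; 0.75, adjusted p = 7.4e-05), Me1 (malic enzyme, a source of NADPH; 0.70, adjusted p = 0.028), Taldo1 (0.51) and Cs (0.40). Without HFD_TKO replicate 1, 2 were higher (Taldo1 and Pdha1) and 2 lower (Slc25a1 and G6pdx). In HFD_TKO, Acss2 measured 446, 182 and 180 CPM and Me1 1958, 1059 and 969 CPM. High-fat feeding in WT lowered 4 of the 10 precursor genes, led by Pdha1 (-0.96) and Tkt (-0.83), and raised 2, led by Pgd (0.61). With TMM scaling 0 were higher, and once centred 9 were higher and 0 lower. In TKO high-fat feeding raised 5 and lowered 0, led by Acss2 (1.06), Pgd (0.90) and Me1 (0.87). With TMM scaling only Me1, Pgd and Idh1 were called, and without HFD_TKO replicate 1 only Me1 and Idh1. On the normal diet 1 of the 10 differed in TKO, Tkt of the pentose phosphate pathway (-1.11, limma adjusted p = 0.0011).

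Of 16 other elongation and desaturation genes 15 were tested (Elovl2 was below the filter). The desaturase copies Scd3 (-1.94, limma adjusted p = 2.9e-07) and Scd4 (-1.85, adjusted p = 3.7e-06) fell with high-fat feeding in WT and were higher in HFD_TKO than in HFD_WT (1.25 and 1.11), and both had a called interaction (1.54 and 1.72), with the caution on shared reads given above. With these copies included, 4 genes of the list were higher and 4 lower by diet in WT (13 and 2 once centred), and 4 higher and 4 lower by genotype on HFD (median 0.08). Among those higher by diet in WT was Elovl3, an elongase of very long chains (1.10, limma adjusted p = 0.0011). Its levels were 0.046 to 0.093 CPM in ND_WT, below the worth of 3 reads, and 1.13 to 1.37 CPM in HFD_WT. Elovl3 and Elovl4, both called higher by diet in WT, reached the filter level of 0.5 CPM only in HFD libraries, which limits these calls. Elovl4 was also among the 4 genes called lower by genotype on HFD, and that call is limited in the same way. Elovl4 reached the filter level only in HFD_WT replicates 1 and 2 and, at 0.512 CPM, in HFD_TKO replicate 1. Of 10 genes that set the use of malonyl-CoA, 4 were higher and 2 lower in HFD_TKO than in HFD_WT (median 0.22), and 7 and 1 with TMM scaling. Once centred 0 were higher and 9 lower. Prkaa2, a catalytic subunit of AMP-activated kinase, was higher (0.95, limma adjusted p = 5.4e-05), as was Mlycd, which degrades malonyl-CoA (0.53, adjusted p = 0.0014), and the carnitine palmitoyltransferase Cpt1a was lower (-0.61, adjusted p = 0.0015). High-fat feeding in WT moved these 3 the other way, with Cpt1a at 1.33, Mlycd at -0.85 and 6 of the 10 genes lower (0 once centred).

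Partners and upstream regulators were called in both directions. In HFD_TKO against HFD_WT 4 of 14 were higher and 4 lower (median -0.12), against 15.2% and 31.6% of all tested genes. Srebf2, the SREBP of cholesterol synthesis, was lower (-0.70, limma adjusted p = 9.4e-05) while Srebf1 was higher. Insig2, which retains SREBPs in the endoplasmic reticulum, was higher (0.57, adjusted p = 3.8e-04). By diet in WT 6 of the 14 partners were higher and 3 lower (14 and 0 once centred), against 37.8% and 20.3% of all tested genes. Insig1 (1.81, limma adjusted p = 1.8e-05) and Srebf2 (0.95, adjusted p = 5.1e-06) were higher and Insig2 was lower (-0.79, adjusted p = 2.2e-05). With TMM scaling the counts by diet in WT were 4 and 5. Among 5 genes of carbohydrate response and glucose entry, Slc2a4, the insulin-responsive glucose transporter GLUT4, fell by 2.66 with high-fat feeding in WT (limma adjusted p = 3.3e-08), was 2.0 higher in HFD_TKO than in HFD_WT (adjusted p = 5.1e-07) and had an interaction of 2.60 (adjusted p = 7.8e-06). On the normal diet it was lower in TKO (-0.60, adjusted p = 0.026). Of the glucose-responsive arrestin-like genes, Arrdc4 was higher with high-fat feeding in WT (0.88, limma adjusted p = 6.7e-06) and lower in HFD_TKO than in HFD_WT (-0.54, adjusted p = 4.7e-04). Txnip was lower with high-fat feeding in WT (-0.62, limma adjusted p = 0.019), but was called higher once centred, as were Arrdc4 and Gpd1. Slc2a4 was still lower then. Txnip was also called lower by diet in TKO, but not once centred. On the normal diet few genes of these lists differed by genotype. Hacd1 (0.53), Insig2 (0.38) and Gpd1 (0.86), the glycerol-3-phosphate dehydrogenase, were higher in TKO. Prkab2 (-0.55) and Prkab1 (-0.32), regulatory subunits of AMP-activated kinase, were lower. Gpd1 (mean 1143 CPM in HFD_WT and 2523 in HFD_TKO) and Hacd1 (13.7 and 22.1) were also called higher in TKO on HFD, but neither once centred.

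**Figure D5:**
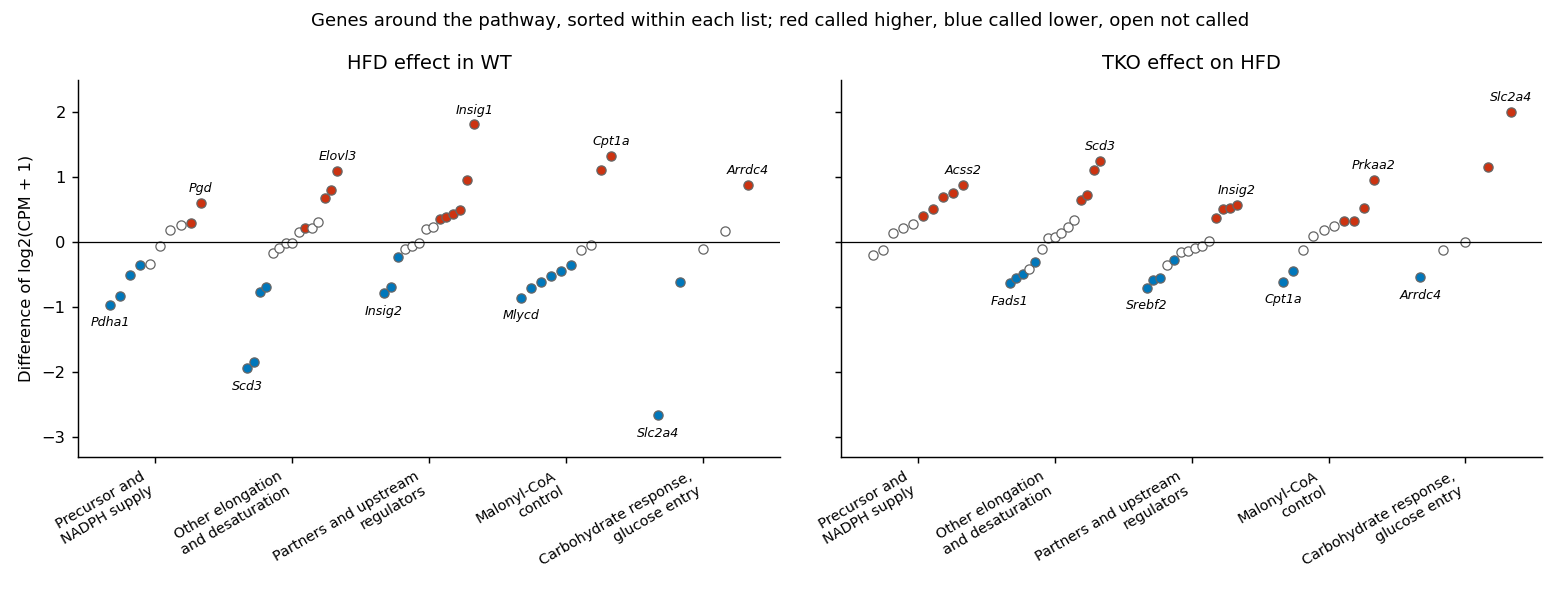
Log2 differences (vertical axis, log2(CPM + 1) scale) of the tested genes of 5 lists around the pathway, sorted within each list, for HFD against ND in WT (left) and TKO against WT on HFD (right); red points were called higher, blue lower, open points not called, and the extreme called genes are named. Slc2a4 is lowest on the left (-2.66) and highest on the right (2.0).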

How the data were processed

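RNA of whole eWAT was sequenced in 12 libraries, 3 a group, and each library was assigned from its title. The authors deposited CPM values per gene, per the file headers, which call them raw CPM. The submitters' processing notes list mm10 as genome build and featureCounts 2.0.0, STAR 2.7.3a and DESeq2 as tools. The sources used here do not give the annotation, the use of strand or how multi-mapped reads were treated. The CPM values were whole multiples of 1 read after subtracting an offset of 0.01 read (100% of values within 0.05 read), so that depth could be recovered. A count of 3 reads, the most that a count of 0 allows, was worth 0.117 to 0.143 CPM, covering counting error only. The 3 rows without a symbol (0.0313% to 0.0679% of CPM per library) were left out.

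The main test was limma 3.58.1 (R 4.3.3) on log2(CPM + 1) with its trended prior variance. This scale understates changes of low genes. All 12 libraries entered with a mean per group (8 residual degrees of freedom), over 15597 genes with at least 0.5 CPM in at least 3 libraries. P-values were adjusted by Benjamini-Hochberg and called at 0.05. The test was also run on simulated data in which 200 genes changed in 1 group. Fewer genes changed there than were called in any comparison here, so that run does not check the calls under such broad change. Alternatives were pseudocounts of 0.1 and 5, no filter, a filter at 5 CPM, TMM scaling, centring on 8 adipocyte markers, fits of the compared groups alone, a replicate block, edgeR 4.0.16 and DESeq2 1.42.0 on recovered reads, and leaving out each library. On TMM scaling the median of all genes moved by 0.05 and 0.11 for the genotype difference on ND and HFD, by -0.14 and -0.07 for the diet difference in WT and TKO, and by 0.07 for the interaction.

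The text names the 10 genes in every comparison, up to 3 called genes of a pathway list by size (all where 5 or fewer were called), and the 5 genes most like the mean profile. The members and lists were chosen with earlier results of these data known. Same-numbered libraries did not deviate together (18 correlations from -0.497 to 0.562, 5 above 0.1), so replicate numbers were not taken as pairs.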

Additional observations from a re-analysis of the deposited data

Results flagged for a closer look

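For 9 of the 10 genes the TKO minus WT difference on the high-fat diet differed from that on the normal diet by a test of the interaction (limma with Benjamini-Hochberg adjustment over all tested genes, 3 mice a group). The differences on the log2 scale were 3.31 for Thrsp (adjusted p = 2.9e-06), 2.20 for Mlxipl (adjusted p = 1.5e-05), 1.86 for Fasn (adjusted p = 0.0028) and 1.71 for Scd1 (adjusted p = 0.0046). They were 1.70 for Acacb (adjusted p = 0.0094), 1.67 for Acaca (adjusted p = 0.016), 1.498 for Acly (adjusted p = 0.0025), 1.01 for Elovl6 (adjusted p = 0.015) and 0.77 for Srebf1 (adjusted p = 0.0032). All 9 were called in each of the 12 fits that left out a library, but centred on adipocyte markers Acaca (0.92, adjusted p = 0.068), Elovl6 (0.27, adjusted p = 0.38) and Srebf1 (0.02, adjusted p = 0.91) were not, nor was Scd1 with no filter on low values (adjusted p = 0.46). Adipocyte markers (5 of 8 with an interaction above 0) and macrophage markers (7 of 8 below 0) also differed.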

How the results depend on the processing

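Of 1090 differences of the 10 genes refitted under the alternatives, 1007 stayed on the same side of the threshold, 38 lost the call, 39 gained one and 6 changed sign with a call before or after. Among the 1007, 17 uncalled differences changed sign, such as Acacb for TKO on HFD (-0.09, and 0.046 with TMM scaling) and Acly for HFD in WT (0.003, and -0.16 with TMM scaling). All 6 sign changes with a call came from centring on adipocyte markers: Acly (-0.051) and Srebf1 (-0.014) for TKO on HFD, Fasn (0.17), Elovl6 (0.70) and Srebf1 (0.37) for HFD in WT, and Srebf1 (0.39) for HFD in TKO, the last from an uncalled difference. Centring also changed the number of called genes from 3 to 5 for TKO on ND, from 7 to 4 for TKO on HFD and from 5 to 8 for HFD in TKO. For TKO on ND, DESeq2 called 7 of the genes and 1395 genes in all against 889 with limma, and a fit of the ND groups alone called 280 (fewer residual degrees of freedom). Leaving out each library gave 3 to 6 called genes for TKO on ND (349 to 1851 over all genes, the highest without ND_WT replicate 3 and the lowest without ND_WT replicate 1), 6 to 9 for TKO on HFD (5981 to 7809), 7 to 9 for HFD in WT (7760 to 9331), 3 to 6 for HFD in TKO (1709 to 4295, the lowest without ND_TKO replicate 3) and 9 to 10 for the interaction (3441 to 5038). Over all genes, TMM scaling changed the higher and lower calls from 337 and 552 to 498 and 424 (TKO on ND), from 2365 and 4923 to 3541 and 3853 (TKO on HFD), from 5892 and 3173 to 4550 and 4395 (HFD in WT), from 2525 and 921 to 1519 and 1393 (HFD in TKO), and from 1550 and 2926 to 1987 and 2533 (interaction). With no filter on low values Scd1 was not called for TKO on HFD (adjusted p = 0.35), HFD in WT (0.091) or the interaction (0.46), while edgeR and DESeq2 called all 3; the cause was not tested. The replicate numbers did not pair the libraries (3 of 12 libraries correlated best with their own number); with a replicate block the calls over all genes were 293 and 458 (TKO on ND), 2308 and 4806 (TKO on HFD), 5781 and 3140 (HFD in WT), 2308 and 854 (HFD in TKO) and 1462 and 2766 (interaction), and among the 10 genes only Scd2 for TKO on HFD changed its call (adjusted p = 0.042). With 3 mice a group, differences near the width of the intervals given could not be resolved.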

Other observations

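Genes whose pattern was most like the mean of the 10 standardised profiles over the 12 libraries were Tshr (Pearson r = 0.947), Ghr (0.937), Dmwd (0.931), Zfp467 (0.930) and Ttc39c (0.925). These values are descriptions, since libraries share groups and the mean profile came from the same libraries. Tshr, the thyrotropin receptor, had mean levels of 174 ± 18.7 and 124 ± 6.30 CPM in WT and TKO mice on ND, and 113 ± 4.82 and 146 ± 18.1 CPM in WT and TKO mice on HFD (SD, n = 3). Ghr, the growth hormone receptor, had 1308 ± 62.1, 980 ± 10.8, 781 ± 90.6 and 1285 ± 38.6 CPM in the same order. Among the 10 genes themselves, Mlxipl (0.953) and Fasn (0.908) were closest to the mean profile that includes them, and Elovl6 (0.384) and Scd2 (0.054) least close.

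Within groups, after group means were removed, Acaca and Acacb varied together over the 12 libraries (r = 0.944). So did Acly and Elovl6 (0.884), Acacb and Srebf1 (0.868) and Acly and Fasn (0.857), whereas Acacb and Scd2 had r = -0.574. ND_WT replicate 3, the lowest ND_WT library for Acaca, Acacb, Mlxipl and Srebf1 and the highest for Scd2, weighs in these values. So does ND_WT replicate 1, the highest ND_WT library for Acly, Elovl6 and Fasn.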
